A study of Mus musculus with 6 samples.

Results

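The genes described here are the very long protein-coding genes of mouse cerebral cortex. The rule that chose them uses annotation and level and no genotype difference, though it was set with earlier results of these data known. A gene was taken if GENCODE M21 annotates it as protein-coding on chromosomes 1 to 19, its span from start to end exceeds 500 kb, and it reached at least 1 CPM (a gene's reads scaled to a fixed library total) in all 6 libraries. Symbols of several channel, receptor, guidance, splicing, chromatin and cadherin families were left out, as were all genes on X and Y. Of 218 annotated genes over that span 184 did not carry a left-out symbol. Of these 181 passed the filter on low counts and 170 met the CPM floor, so 170 of the 27939 genes tested are members. Among the 184, 1 gene had a count of 0 in every library. Because the floor had to be met in both genotypes, a gene silent in either one could not have become a member.

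The libraries hold polyadenylated RNA of adult cortex. They were 3 from mice heterozygous for Setd5 (het), which encodes a SET domain protein tied to chromatin regulation, and 3 from wild type mice (WT). Every library is otherwise described alike, with no treatment named. For the kind of Setd5 allele, the strain, the sex, the exact age and any pooling of tissue, nothing is given in the sources used here. Nor do the labels tie each library to its own animal, so a p-value reflects spread among libraries that could be technical. Libraries are numbered within a genotype in record order.

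A gene of this size is transcribed as one precursor that is almost all intron, and a polymerase takes hours to cross it. In neurons such genes are common among cell adhesion molecules, synaptic scaffolds and ion channel partners, and their transcription is known to lean on topoisomerases, which release the twist that builds up ahead of the polymerase, and on factors that keep elongation and splicing going over long introns. Several lie at common fragile sites, which break when replication is slowed. The comparison therefore asks whether cortex heterozygous for a chromatin gene expresses these genes at another level, and whether any difference follows the length of the gene.

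The 170 genes had a median span of 718.632 kb, against 25.6385 kb for the 12904 autosomal protein-coding genes of 500 kb or less that met the same CPM floor. Spans over 1000 kb belonged to 43 of them and spans over 2000 kb to 6. Exons made up a median of 1.27% of the span, against 18.3% in the shorter genes. The mature sequence was longer as well, with a median of 10339.5 bases of exon in 24 exons, against 4572 bases in 10 exons. Per kb of exon their level was close to that of shorter genes, with a median of 5.15 CPM per kb, against 5.50 CPM per kb. The range was wide, from 0.0942 CPM per kb for Adgrv1, a large adhesion G protein-coupled receptor, to 239.9 CPM per kb for Syt1, the calcium sensor of synaptic vesicle release. All 170 together took 1.87%, 1.84% and 1.80% of the counts of het libraries 1 to 3, and 1.85%, 1.81% and 1.80% of those of WT libraries 1 to 3.

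Span depends on the annotation. RefSeq, on build GRCm38.p6, holds 165 of the members, and 157 of these exceed 500 kb there too. Fgfr2, a receptor for fibroblast growth factors, spans 2961 kb in GENCODE and 104.357 kb in RefSeq. Slc7a11, the cystine and glutamate exchanger, spans 551 kb and 134.151 kb. For Rasgef1b, an exchange factor of the Ras family, the spans are 512 kb and 35.507 kb. Another limit is sharing of sequence: 63 members share at least 1 exonic base with another gene, and 5 share every exonic base, among them the predicted model Gm20388, the longest at 4435 kb. Reads of those 5 cannot be assigned to 1 gene with certainty, and how such reads were counted is not stated. All 5 still met the CPM floor, so reads on shared exons were not all left out. Iqschfp, another of the 5, averaged 225 CPM over the libraries, and Schip1, which overlaps it in position, averaged 246 CPM. The same reads may thus have been counted for more than 1 member. The cutoff itself marked no break in the annotation: Edil3, Dock1 and Car10 lie just inside it at 501.751, 502.985 and 503.721 kb, and Pde1c, Dnm3 and Prkce just outside it at 499.299, 495.581 and 490.134 kb.

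Transcription of such a gene begins at a promoter at one end of a very long unit. The windows below are from RefSeq, build GRCm38.p6, from 250 bases before to 50 bases after a transcript start. They belong to Cntnap2 (chr6:45059811-45060110, plus strand), the member with the largest span among those with an entry whose RefSeq span also exceeds 500 kb, and to the members with the smallest p in each direction in the genotype comparison, Sorcs1 (chr19:50678597-50678896, minus strand) and Dock1 (chr7:134670437-134670736, plus strand). They are shown to place a transcript start of each gene, and the letters CG, the site of DNA methylation in vertebrates, are in capitals. The start used lies 704 bases from the GENCODE gene start for Cntnap2, where it is the nearer of 2 in RefSeq. For Dock1 the distance is 33 bases and for Sorcs1 it is 0.
Cntnap2: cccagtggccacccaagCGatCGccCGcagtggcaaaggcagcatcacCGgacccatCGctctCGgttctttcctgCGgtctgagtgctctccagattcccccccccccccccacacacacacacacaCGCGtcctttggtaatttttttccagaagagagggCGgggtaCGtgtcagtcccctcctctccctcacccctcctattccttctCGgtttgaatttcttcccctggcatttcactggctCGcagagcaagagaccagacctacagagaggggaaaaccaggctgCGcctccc
Sorcs1: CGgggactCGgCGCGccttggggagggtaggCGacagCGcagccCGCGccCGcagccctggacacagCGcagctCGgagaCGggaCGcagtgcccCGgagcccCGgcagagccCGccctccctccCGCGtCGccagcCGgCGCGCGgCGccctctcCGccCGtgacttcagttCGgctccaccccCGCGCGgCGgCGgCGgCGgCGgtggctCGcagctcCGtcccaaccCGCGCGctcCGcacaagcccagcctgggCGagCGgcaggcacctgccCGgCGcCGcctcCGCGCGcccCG
Dock1: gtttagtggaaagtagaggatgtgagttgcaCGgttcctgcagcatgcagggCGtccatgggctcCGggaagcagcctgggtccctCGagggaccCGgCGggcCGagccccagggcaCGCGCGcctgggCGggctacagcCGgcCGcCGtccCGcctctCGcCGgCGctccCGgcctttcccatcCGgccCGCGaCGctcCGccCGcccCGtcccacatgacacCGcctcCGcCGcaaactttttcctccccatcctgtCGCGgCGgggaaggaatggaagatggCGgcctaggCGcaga
The Cntnap2 window holds 14 CG, the Sorcs1 window 50 and the Dock1 window 34, counted on the strand shown, where each CG is also a CG on the other strand. Among all 32851 RefSeq windows of this length 94.6% hold at least 1 CG. At least 14 are found in 36.3% of the windows, at least 50 in 0.9% and at least 34 in 7.7%. The motif TATAAA is absent from all 3 windows on both strands. The promoter table holds 129 of the 170 members, 75.9%, which is under the 80% set for a comparison over a gene set, so no comparison over the set is given.

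Before the genotypes are compared, the libraries need a description. Totals ran from 82850628 to 92860628 counts, so that 3 counts, the limit a count of 0 allows, correspond to 0.0323 to 0.0362 CPM; that limit covers counting error only. Setd5 itself, on chromosome 6, had 69.5, 68.7 and 75.3 CPM in het libraries, against 111, 97.0 and 108 CPM in WT libraries, a log2 difference of -0.56 (SE 0.07). The groups did not overlap, which goes with the labels, although the gene's adjusted p was 0.258 by edgeR's quasi-likelihood test with Benjamini-Hochberg adjustment. WT library 3 stood apart from the other 5. Its title is written in another form, its 10 striatal projection neuron markers summed to 1463 CPM, and no other library exceeded 616 CPM. The other libraries had 276, 376 and 616 CPM of these markers in het and 223 and 359 CPM in WT; none of the 10 markers was at 0 in any library. Het library 3 and WT library 3 also had high counts of Xist (865 and 784 CPM, against 0.45 to 0.88 CPM in the other 4), so the libraries differ in sex within both genotypes. The 10 markers of cortical excitatory neurons were all detected, summing to 2726 to 3154 CPM in het and 2861.5 to 2993 CPM in WT. That goes with the cortical label but does not show how much other tissue was included.

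The very long genes as a group lay close to the same level in both genotypes, with overlapping library medians, and none was called. At an adjusted p under 0.05 in edgeR's quasi-likelihood test, with Benjamini-Hochberg adjustment over all genes, 0 of 170 passed, and 0 of all 27939 genes (0%). Other tests also called 0 members, though over all genes DESeq2 called 62, edgeR's likelihood ratio test 29 and limma-voom 0. At an unadjusted p under 0.05 there were 15 members, or 8.82%, beside 5.83% of all genes tested and 6.76% of autosomal protein-coding genes with the same CPM floor. Of these 15, 4 were higher in het (2.35%, beside 2.44% of all genes and 2.49% of the protein-coding genes) and 11 were lower (6.47%, beside 3.38% of all genes and 4.27% of the protein-coding genes). The count turned on single libraries: it was 7 without het library 1 (3.91% of all genes in that fit), 9 without het library 2 (3.07%) and 30 without WT library 2 (8.89%). The adjusted p of the members ran from 0.797 to 0.998 in that edgeR test.

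The size of the differences was small throughout. The median log2 difference was -0.011, with the middle of the distribution from -0.11 to 0.086, beside a median of -0.00053 over all genes tested and -0.0042 over the protein-coding genes of 500 kb or less. The median per library, as the deviation of log2 CPM from the WT mean, was -0.015, -0.0095 and -0.013 in het libraries and -0.011, 0.0014 and 0.0037 in WT libraries. The groups overlapped, since het library 2 lay above WT library 1. The pooled SD of these medians within a genotype was 0.0060, so the median difference was larger than that SD, and it carries no test. The fitted level was higher in het for 80 members (47.1%) and lower for 90, beside 49.9% higher over all genes. Of all members 1, Cntnap5c, differed by more than 0.5 on the log2 scale. It is also among the members with the fewest counts. The 95% interval of the difference lay within 1.5-fold in either direction for 153 members and within 1.2-fold for 59 (34.7%).

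Libraries of the 2 genotypes did not overlap for 23 members (13.5%), beside 11.7% of all genes and 12.6% of the protein-coding genes with the same floor. Het was higher for 15 of these (8.82%, beside 5.88% of all genes and 6.04% of the protein-coding genes) and lower for 8 (4.71%, beside 5.85% and 6.56%). The direction of this count is the opposite of the count by p, where lower members were the more frequent. The 15 were Nbea, Ctnna2, Etl4, Frmd4a, Zmat4, Csmd1, Sugct, Kalrn, Camta1, Syne1, Ptprd, Astn2, Erbb4, Sorcs1 and Dscam, and the 8 were Zfp804b, Dock1, Lama2, Pard3, Cdk14, Cdkal1, Cntnap2 and Ctnnd2.

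**Figure D1:**
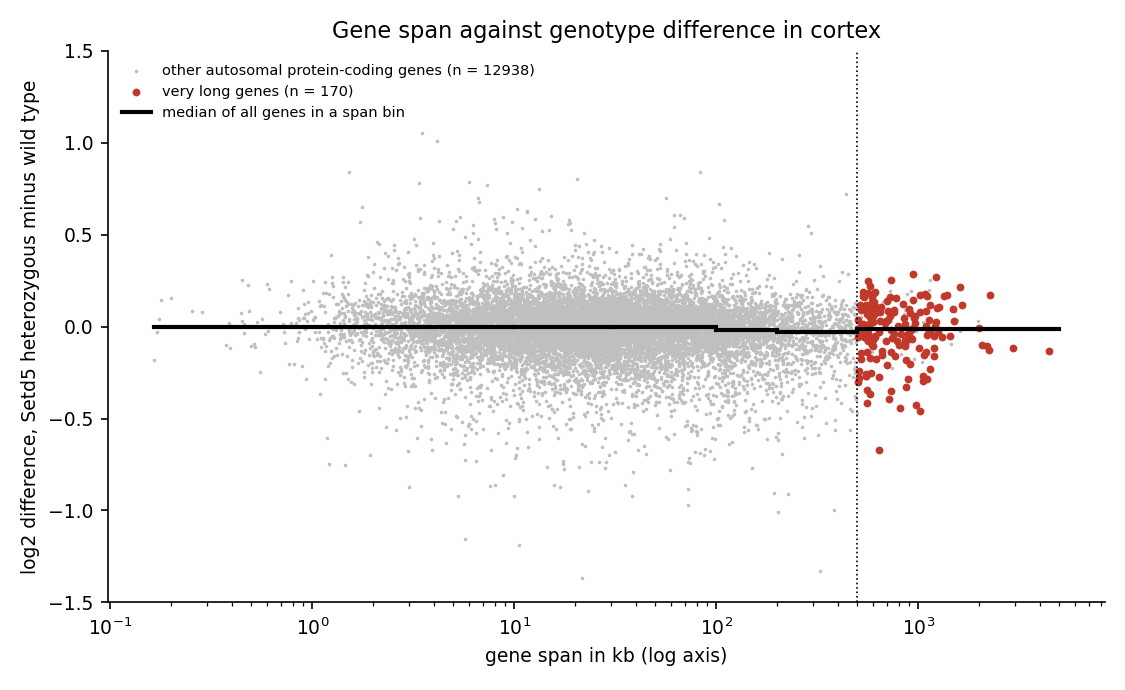
Fitted log2 difference (Setd5 heterozygous minus wild type) of each autosomal protein-coding gene with at least 1 CPM in all 6 libraries against its span in kb on a log axis, with the 170 very long genes in red, other genes in grey, a dotted line at 500 kb and black lines at the median of each span bin. The bin medians lie between -0.028 and -3.4e-05, and the members spread on both sides of 0; 3 genes lie outside the plotted range of 1.5 in either direction.

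Span did not order the differences among the members. Across the 170 genes the slope was 0.032 on the log2 scale per step of 1 in log10 span (Pearson r 0.033, Spearman rho 0.036), and across all 13108 protein-coding genes with the same floor it was -0.018 (r -0.066, rho -0.053). These are descriptions across genes, which share libraries, depth and base composition and are not independent, so no p is given. The slope within a library, on deviations of log2 CPM from the mean of all libraries, was 0.044, 0.030 and -0.029 for the members in het libraries, and -0.00073, -0.031 and -0.014 in WT libraries. Both signs thus occur among het libraries. The 43 members over 1000 kb had a median log2 difference of -0.024 and the 127 between 500 and 1000 kb one of -0.0085. The log2 difference was more closely related to level than to span, with a Pearson r of 0.34 between the difference and log level across members and 0.18 across the protein-coding genes. Span goes with other properties, with a Spearman rho of -0.32 with GC content and 0.64 with exonic length over the protein-coding genes.

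In span bins the medians were lower between 100 and 500 kb than above 500 kb. Genes under 10 kb had a median log2 difference of -0.0017 (n = 2981), those of 10 to 30 kb -3.4e-05 (n = 4131) and those of 30 to 100 kb -0.00018 (n = 3888). From 100 to 200 kb the median was -0.021 (n = 1235), from 200 to 500 kb -0.028 (n = 669), and over 500 kb, with the left-out families included, -0.011 (n = 204). The share of genes at an unadjusted p under 0.05 was 6.64%, 6.25% and 6.48% in the 3 shortest bins, 8.10% and 8.97% in the next 2 and 8.82% over 500 kb. Per library, for genes of 200 to 500 kb the median deviation was -0.019, -0.042 and -0.027 in het libraries and -0.013, -0.019 and 0.035 in WT libraries. WT library 3 was the highest, and WT library 2 was level with het library 1. Over 500 kb the values were -0.013, -0.0060 and -0.0064 in het, against -0.012, -0.0024 and 0.0020 in WT.

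**Figure D2:**
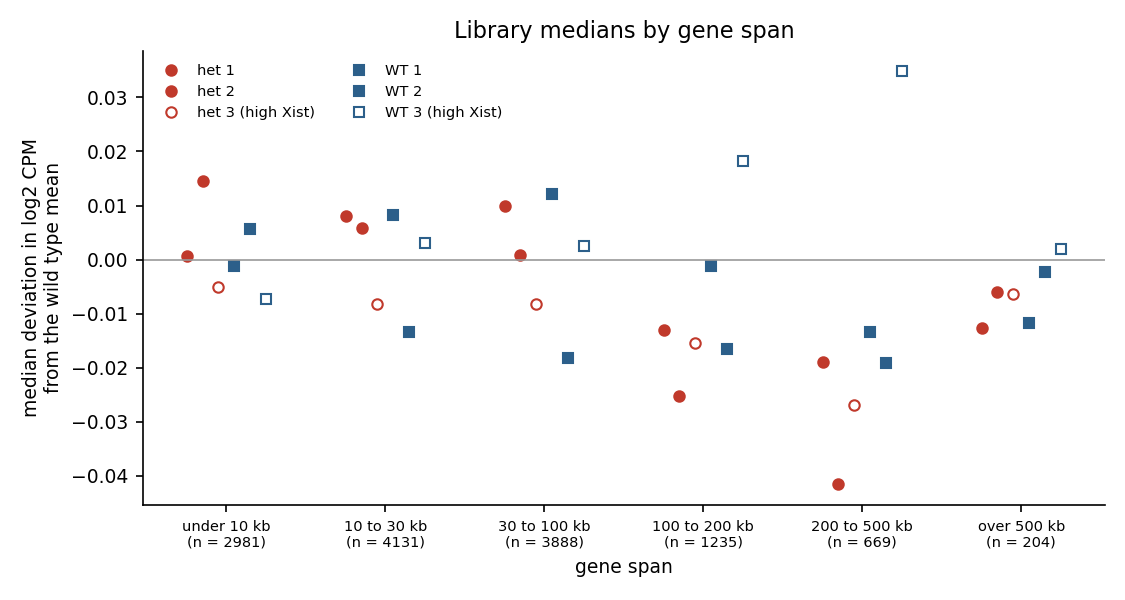
Median deviation in log2 CPM from the wild type mean in each library, by gene span bin from under 10 kb to over 500 kb, for autosomal protein-coding genes with at least 1 CPM in all libraries; red circles are het libraries, blue squares WT libraries, and open symbols the libraries with high Xist. WT library 3 is the highest at 0.035 in the bin of 200 to 500 kb, and over 500 kb all 6 libraries lie between -0.013 and 0.0020.

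The longest members were close to equal between genotypes, with differences on both sides. Ptprd, a receptor tyrosine phosphatase that organises synapses (chr4:75941238-78211961, minus strand, 2271 kb), had 567, 575 and 596 CPM in het libraries, against 554, 551 and 439 CPM in WT libraries, a log2 difference of 0.17 (SE 0.09). WT library 3 was the low one, and without it the log2 difference was 0.069. Cntnap2, which encodes the neurexin-like CASPR2 of axons (chr6:45059357-47304213, plus strand, 2245 kb), had 119, 118 and 116 CPM in het libraries, against 123, 128 and 135 CPM in WT libraries, a log2 difference of -0.13 (SE 0.06, 95% interval -0.26 to 0.01). The groups did not overlap, but the spread among WT libraries exceeded the gap between the groups. Lsamp, an immunoglobulin protein of the limbic system anchored to the membrane by a lipid (chr16:39984361-42181679, plus strand, 2197 kb), had 244, 244 and 232 CPM in het libraries, against 249.9, 243 and 281 CPM in WT libraries (log2 -0.11, SE 0.07). Lrp1b, an endocytic receptor of the LDL receptor family (chr2:40595246-42653624, minus strand, 2058 kb), had 63.2, 64.1 and 66.3 CPM in het libraries, against 64.9, 73.6 and 68.8 CPM in WT libraries (log2 -0.099, SE 0.07). Groups overlapped for both. Fgfr2, long only in GENCODE, had 27.6, 28.6 and 33.1 CPM in het libraries, against 32.0, 33.2 and 31.6 CPM in WT libraries (log2 -0.12, SE 0.08).

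Members that were higher in het with the smallest p were Sorcs1, Dscam, Astn2, Syne1, Erbb4 and Esrrg. Sorcs1, a sorting receptor that carries synaptic proteins to the surface (chr19:50143299-50678646, minus strand), had 66.8, 62.1 and 65.5 CPM in het libraries, against 54.6, 57.9 and 58.4 CPM in WT libraries, a log2 difference of 0.19 (SE 0.06). All het libraries lay above all WT libraries, and over 20 other fits and left-out libraries the difference ran from 0.16 to 0.22. Dscam, an adhesion molecule by which neurites recognise themselves (chr16:96590840-97170752, minus strand), had 56.5, 53.0 and 49.6 CPM in het libraries, against 46.6, 47.5 and 42.3 CPM in WT libraries (log2 0.22, SE 0.07). Astn2, a membrane protein of neurons migrating along glia, had 34.9, 31.3 and 33.1 CPM in het libraries, against 27.8, 30.9 and 29.4 CPM in WT libraries (log2 0.17, SE 0.07). In neither gene did the groups overlap, though the gap between them was at most a few CPM. Syne1, which links the nuclear envelope to the cytoskeleton, had 629, 630.2 and 596 CPM in het libraries, against 584, 563 and 509 CPM in WT libraries (log2 0.16, SE 0.07). Erbb4, the neuregulin receptor prominent in cortical interneurons, had 116, 117 and 116 CPM in het libraries, against 108, 109.6 and 90.2 CPM in WT libraries (log2 0.18, SE 0.08). WT library 3 was the lowest for both, and without it the log2 difference was 0.11 for Syne1 and 0.092 for Erbb4. Esrrg, an orphan nuclear receptor of oxidative metabolism, had 53.4, 46.0 and 48.5 CPM in het libraries, against 38.8, 46.6 and 44.9 CPM in WT libraries (log2 0.18, SE 0.09), and the groups overlapped. The adjusted p of these 6 genes by edgeR's quasi-likelihood test was 0.828 to 0.863.

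Members that were lower in het with the smallest p were Dock1, Dgkb, Lama2, Slc7a11, Cntnap5c and Gpc6. Dock1, which activates the small G protein Rac in migration and phagocytosis (chr7:134670654-135173639, plus strand), had 14.8, 15.1 and 16.8 CPM in het libraries, against 20.1, 17.7 and 19.8 CPM in WT libraries, a log2 difference of -0.30 (SE 0.09, 95% interval -0.50 to -0.10). Every het library lay below every WT library. It was the only member at an unadjusted p under 0.05 in all 20 other fits and left-out libraries, with log2 differences from -0.37 to -0.27. These fits reuse the libraries in which Dock1 was picked for its small p, so they are no independent support. The share of all genes that pass in every fit was not determined. The adjusted p of Dock1 was 0.797 by edgeR's quasi-likelihood test and 0.29 by DESeq2. Dgkb, a diacylglycerol kinase of neurons that is abundant in striatum (chr12:37817726-38634239, plus strand), had 156, 164 and 182 CPM in het libraries, against 181, 209 and 289 CPM in WT libraries (log2 -0.44, SE 0.15). WT library 3, with the high striatal markers, was far above the rest, and without it the log2 difference was -0.22. With the striatal marker level as a covariate it was -0.34. Dgkb was at an unadjusted p under 0.05 in 19 of the 20 other fits and left-out libraries, as were Lama2 and Dscam. The log2 difference of Dgkb ran from -0.58 to -0.22 over them. Its adjusted p was 0.828 by edgeR's quasi-likelihood test and 0.23 by DESeq2. Cntnap5c, a member of the contactin-associated family, had 1.60, 1.90 and 1.36 CPM in het libraries, against 2.41, 1.76 and 3.56 CPM in WT libraries (log2 -0.67, SE 0.26). Its highest library was again WT library 3, without which the log2 difference was -0.36.

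The other 3 are known mainly from non-neuronal cells of the brain. Lama2, a laminin chain of basement membranes, had 11.4, 11.98 and 11.3 CPM in het libraries, against 13.7, 15.5 and 12.8 CPM in WT libraries (log2 -0.28, SE 0.09), with no overlap. Slc7a11, the cystine importer of astrocytes and meninges, had 77.0, 79.2 and 73.2 CPM in het libraries, against 106, 93.8 and 77.1 CPM in WT libraries (log2 -0.27, SE 0.10), where WT library 3 lay among the het values. Gpc6, a glypican that astrocytes release and that raises synaptic AMPA receptors, had 5.68, 5.87 and 6.37 CPM in het libraries, against 7.83, 7.85 and 6.35 CPM in WT libraries (log2 -0.30, SE 0.12). WT library 3 again lay with the het libraries. Marker lists of non-neuronal cells differed in both directions. The 7 meningeal fibroblast markers summed to 79.9 to 93.6 CPM in het and 86.3 to 179.6 CPM in WT, the low WT value being library 3, and 7 of 7 were fitted lower. The 7 pericyte and smooth muscle markers summed to 244.1 to 250.5 CPM in het and 254.3 to 313.6 CPM in WT (7 of 7 lower), the 7 endothelial markers to 127.3 to 132.0 CPM in het and 136.6 to 145.4 CPM in WT (6 of 7 lower), and the 8 microglial markers to 353.0 to 393.9 CPM in het and 393.9 to 425.3 CPM in WT (8 of 8 lower). The 8 astrocyte markers summed to 4850.4 to 5185.0 CPM in het and 5105.6 to 5295.5 CPM in WT (8 of 8 lower). The 6 markers of oligodendrocyte precursors summed to 369.5 to 466.8 CPM in het and 441.6 to 455.8 CPM in WT (5 of 6 lower). Oligodendrocytes ran the other way, with 8 markers summing to 9920.0 to 14514 CPM in het and 8192 to 10764 CPM in WT (8 of 8 higher). No marker of these lists was at 0. In tissue RNA fewer cells of a type and less RNA per cell cannot be told apart, and the part of these lists in the differences of Lama2, Slc7a11 and Gpc6 was not tested.

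**Figure D3:**
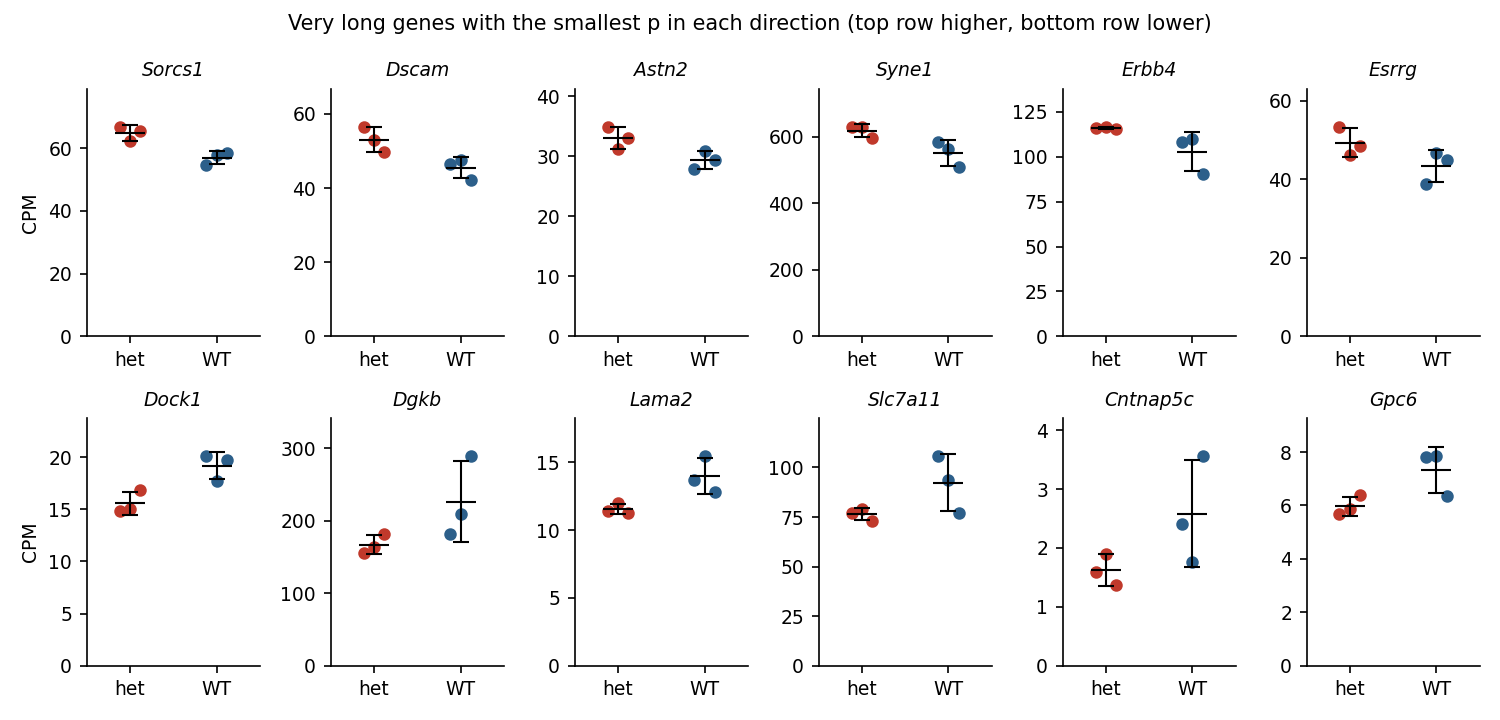
CPM in each library for the 12 members with the smallest p, 6 higher in het on top and 6 lower below, with 3 het libraries in red and 3 WT libraries in blue, horizontal lines at the mean and bars of 1 SD; every axis starts at 0. Het libraries of Sorcs1 lie between 62.1 and 66.8 CPM, against 54.6 to 58.4 CPM in WT, and those of Dock1 between 14.8 and 16.8 CPM, against 17.7 to 20.1 CPM in WT.

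By role, 125 members fell into 12 lists and no list stood at one side as a whole. The counts are small and carry no test, and 49.9% of all genes were fitted higher and 5.83% were at an unadjusted p under 0.05. Immunoglobulin adhesion molecules had 8 members higher and 4 lower in het, with a median log2 difference of 0.046, and 1 higher and 2 lower at an unadjusted p under 0.05. Besides Dscam these were Sdk1, an adhesion molecule that matches synaptic layers in chick and mouse retina, with 4.75, 3.51 and 3.91 CPM in het libraries, against 4.79, 4.74 and 6.82 CPM in WT libraries (log2 -0.42, SE 0.18), and Kirrel3, a synaptic adhesion molecule, with 27.7, 24.7 and 32.8 CPM in het libraries, against 31.7, 33.1 and 37.8 CPM in WT libraries (log2 -0.27, SE 0.11). Both had their highest value in WT library 3, without which the log2 differences were -0.23 and -0.19. Cadm2, a synaptic immunoglobulin protein and the list's largest by CPM, had 516, 498 and 513 CPM in het libraries, against 522, 540.1 and 445 CPM in WT libraries (log2 0.018, SE 0.08). Its sign depends on the fit, and it was -0.062 without WT library 3.

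Synaptic adhesion molecules and synapse organisers had 5 members higher and 10 lower (median -0.058), and Cntnap5c was the one at an unadjusted p under 0.05. The largest of that list by CPM was Lrrc4c, the netrin-G ligand of dendrites, with 185, 186 and 164 CPM in het libraries, against 203, 186 and 167 CPM in WT libraries (log2 -0.058, SE 0.09). Postsynaptic and junction scaffolds had 4 higher and 7 lower (median -0.048), none at that p. Ank2, which ties membrane proteins to spectrin, had 549, 528 and 536 CPM in het libraries, against 568, 534 and 575 CPM in WT libraries (log2 -0.057, SE 0.06). Pard3, a cell polarity scaffold, had 8.43, 9.15 and 9.39 CPM in het libraries, against 9.90, 9.75 and 12.6 CPM in WT libraries (log2 -0.26, SE 0.12), with no overlap.

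Vesicle release and membrane trafficking genes were near 0 on balance, with 6 higher and 4 lower (median 0.027). Sorcs1 was the only one at an unadjusted p under 0.05. Syt1 (chr10:108497650-109010982, minus strand), the member with the largest share of counts, had 2099, 2155 and 1990.1 CPM in het libraries, against 1920.1, 2040.2 and 1798 CPM in WT libraries (log2 0.12, SE 0.07), and het library 3 lay below WT library 2. Nbea, a trafficking protein of synapses linked to autism, had 243, 237 and 244 CPM in het libraries, against 229, 232 and 230.1 CPM in WT libraries, with no overlap at a log2 difference of only 0.07 (SE 0.06). Rims1, a scaffold of the release site, had 364, 307 and 309 CPM in het libraries, against 384, 357 and 367 CPM in WT libraries (log2 -0.18, SE 0.08). Het library 1 lay among the WT values, the other het libraries below them.

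Receptor tyrosine phosphatases had 4 higher and 2 lower (median 0.011), and Ptprd, described above, had both their smallest p and their highest CPM. Growth factors and their receptors had 3 higher and 7 lower (median -0.045). Among them Nell1, a secreted protein with EGF-like repeats, was at an unadjusted p under 0.05 with 42.5, 33.7 and 36.8 CPM in het libraries, against 38.2, 52.4 and 46.9 CPM in WT libraries (log2 -0.28, SE 0.12). Het library 1 exceeded WT library 1, so the groups overlapped. Ntrk3, the receptor of neurotrophin 3, had 144, 152 and 154 CPM in het libraries, against 161, 145 and 155 CPM in WT libraries (log2 -0.037, SE 0.07).

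Ion channels, their partners and exchangers were split, 6 higher and 5 lower (median 0.0014), none at an unadjusted p under 0.05. Fgf12, which binds sodium channels, had 341, 315 and 293 CPM in het libraries, against 285, 311 and 252 CPM in WT libraries (log2 0.16, SE 0.09). Kinases, phosphatases and second messenger enzymes had 3 higher and 5 lower (median -0.043), with Dgkb and Cdk14 at an unadjusted p under 0.05. Cdk14, a cyclin-dependent kinase of Wnt signalling, had 193, 191 and 182 CPM in het libraries, against 225, 219.7 and 194 CPM in WT libraries (log2 -0.17, SE 0.07), and the groups were separated by about a CPM. Plcb1, a phospholipase that G proteins activate, had 325, 312 and 298 CPM in het libraries, against 289, 306 and 319.5 CPM in WT libraries (log2 0.033, SE 0.07).

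Regulators of small G proteins and G proteins had 4 higher and 4 lower (median -0.020), and Dock1 alone was at an unadjusted p under 0.05. Psd3, an exchange factor for Arf6, had 862, 910.2 and 830.0 CPM in het libraries, against 948, 868 and 782 CPM in WT libraries, a difference of 0.0023 (SE 0.08) whose sign turned in 9 of the alternatives. Cytoskeletal and migration genes had the highest list median, 0.099, with 5 higher and 4 lower. At an unadjusted p under 0.05 they held Astn2 and Syne1 among the higher and Lama2 among the lower.

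Transcription and RNA regulators had 6 higher and 11 lower (median -0.039), none at an unadjusted p under 0.05. Zfhx3, a homeobox and zinc finger factor, had 3.33, 3.14 and 4.34 CPM in het libraries, against 3.92, 4.25 and 6.68 CPM in WT libraries (log2 -0.46, SE 0.22). Its highest value was in WT library 3, and the log2 difference was -0.18 without that library. Camta1, a calmodulin-binding transcription activator, had 264, 238 and 226 CPM in het libraries, against 221, 212 and 225 CPM in WT libraries (log2 0.15, SE 0.07), and het library 3 exceeded WT library 3 by only about a CPM. Genes of glycan synthesis and proteoglycans had 4 higher and 4 lower (median -0.015), with Gpc6 the one at an unadjusted p under 0.05. The 45 members outside every list had 22 higher and 23 lower (median -0.0063), with Slc7a11 and Cpq, a secreted carboxypeptidase, at an unadjusted p under 0.05. Cpq had 11.03, 13.1 and 11.4 CPM in het libraries, against 14.5, 16.1 and 12.6 CPM in WT libraries (log2 -0.28, SE 0.11).

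**Figure D4:**
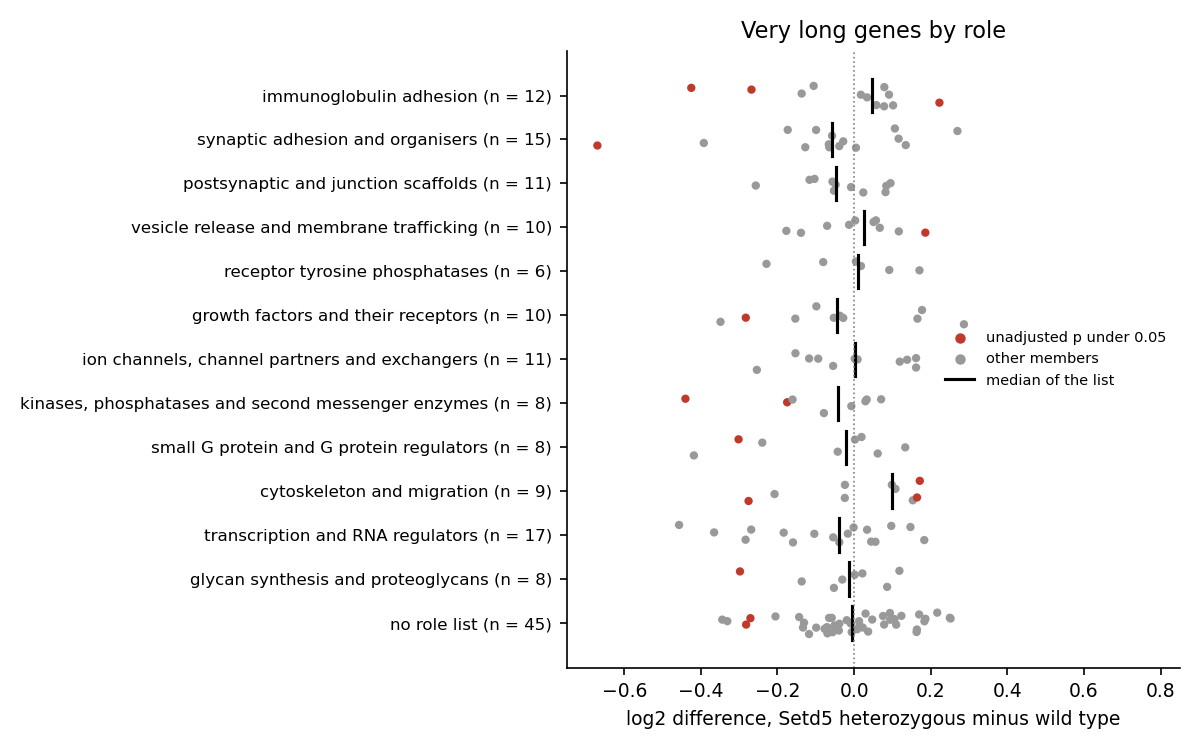
Fitted log2 difference (Setd5 heterozygous minus wild type) of each of the 170 members by role list, with the list median as a black bar and members at an unadjusted p under 0.05 in red. List medians lie between -0.058 for synaptic adhesion and 0.099 for cytoskeleton and migration, and every list has points on both sides of 0.

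Genes at common fragile sites, a class of very long genes known from human and mouse cells, did not stand apart. Of 11 members on that list 4 were higher and 7 lower, the median was -0.016 and none was at an unadjusted p under 0.05. Fhit, a dinucleotide hydrolase at the best known human fragile site (1612 kb in mouse), had 2.78, 3.105 and 2.63 CPM in het libraries, against 2.21, 2.85 and 2.26 CPM in WT libraries (log2 0.22, SE 0.16). Wwox, an oxidoreductase at another such site, had a log2 difference of 0.076 (SE 0.09). Macrod2, a hydrolase of ADP-ribose with a span of 1998 kb, had 58.6, 58.7 and 52.0 CPM in het libraries, against 54.6, 54.8 and 60.6 CPM in WT libraries (log2 -0.0063, SE 0.07). Dab1, an adaptor of the Reelin pathway, was at -0.024 (SE 0.06), Immp2l, a mitochondrial peptidase subunit, at -0.070, and the nuclear receptor Rora at -0.016. Cntnap2, Lsamp, Lrp1b and Nbea, also on this list, are given above.

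Genes whose products serve transcription of long units were measured beside them. All 12 of that list were tested, with 7 higher and 5 lower in het and a median log2 difference of 0.025. Top1, the topoisomerase that nicks a single strand, had 166, 168 and 152 CPM in het libraries, against 166, 152 and 149.7 CPM in WT libraries (log2 0.053, SE 0.07). Top2b, the neuronal topoisomerase that passes a duplex through a break, had 169, 174 and 174 CPM in het libraries, against 157, 166 and 172 CPM in WT libraries (log2 0.064, SE 0.06). Both overlapped between genotypes. Sfpq, an RNA-binding protein needed for elongation over long introns, was the one at an unadjusted p under 0.05, with 178, 165 and 174 CPM in het libraries, against 165, 141 and 152 CPM in WT libraries (log2 0.18, SE 0.07). Its adjusted p by edgeR's quasi-likelihood test was 0.844.

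The members varied more between libraries of a genotype than shorter genes did, in het as well as in WT. The median within-group SD of log2 CPM was 0.125 for members and 0.109 for genes of 500 kb or less. In het it was 0.090 for members and 0.075 for shorter genes, and in WT 0.140 and 0.121. Without WT library 3 the WT values were 0.086 and 0.081. These rest on fewer libraries, which by itself lowers a median SD, so they cannot be set against the values above. The highest of the 6 values fell in WT library 3 for 55 members (32.4%, beside 28.8% of the protein-coding genes), and in the other libraries for 12 to 35. The lowest also fell there most often, for 45 members. The first principal component of the members held 51.2% of their variance, with scores of -1.09, -1.17 and -0.09 for het libraries and -0.46, -0.34 and 3.17 for WT libraries, so that it set WT library 3 apart and not the genotypes.

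The members with the highest loadings on that component were Ryr3, Cntnap5c, Zfhx3, Alk, Cntnap5b, Dgkb and Foxp2. The lowest loadings were those of Tenm2, Iqschfp, Naaladl2, Schip1 and Nav3, of which Iqschfp and Schip1 overlap in position. Those given here with values were picked after the values were seen and serve as a description. The level of the 10 striatal markers relative to the WT mean, as mean log2 CPM, was -1.46, -0.36 and 0.61 in het libraries and -1.49, -0.36 and 1.84 in WT libraries. Ryr3, a ryanodine receptor of intracellular calcium stores, had 19.1, 27.9 and 34.9 CPM in het libraries, against 25.6, 23.8 and 48.4 CPM in WT libraries (log2 -0.25, SE 0.28). Foxp2, a forkhead factor of striatal projection and deep cortical neurons, had 21.7, 20.01 and 32.5 CPM in het libraries, against 16.1, 25.3 and 35.6 CPM in WT libraries (log2 -0.055, SE 0.26). In both genes library 3 was the highest of its genotype. Het library 3 and WT library 3 are also the libraries with high Xist. Sex and a high striatal marker level thus cannot be told apart in this pattern. Tenm2, a teneurin that binds latrophilins across the synapse, had 52.3, 64.5 and 63.1 CPM in het libraries, against 64.0, 47.5 and 37.8 CPM in WT libraries (log2 0.27, SE 0.17). Nav3, a neuron navigator on microtubule ends, had 168, 162 and 158 CPM in het libraries, against 155, 168 and 116 CPM in WT libraries (log2 0.15, SE 0.12). Both had their lowest value in WT library 3. Not every gene with a high loading followed the striatal markers among het libraries: Cntnap5c was lowest in het library 3, and Cntnap5b, with 14.9, 11.1 and 11.6 CPM in het libraries, against 13.1, 14.03 and 22.3 CPM in WT libraries, was highest in het library 1. Tenm2 was lowest in het library 1, where the markers were also lowest. The part of striatal tissue in these values was not tested beyond the fit with the marker level as a covariate. Under it 21 of the 170 members (8 higher, 13 lower) were at an unadjusted p under 0.05 in edgeR's test, beside 6.37% of all genes in that fit. At an adjusted p under 0.05 there were 0.

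**Figure D5:**
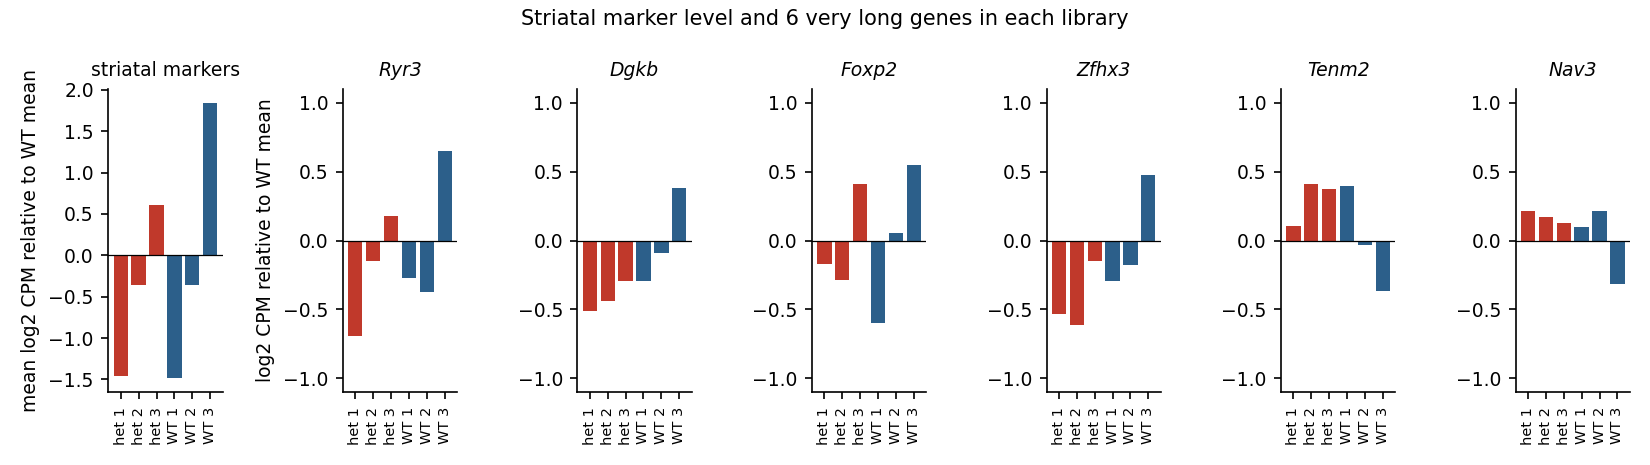
Mean log2 CPM of 10 striatal projection neuron markers and log2 CPM of 6 members (Ryr3, Dgkb, Foxp2, Zfhx3, Tenm2 and Nav3), each relative to the WT mean, in the 3 het libraries (red) and the 3 WT libraries (blue); the first panel has its own axis. The markers stand at 1.84 in WT library 3 and 0.61 in het library 3, where Ryr3 and Foxp2 are also the highest of their genotype, while Tenm2 and Nav3 are lowest in WT library 3. Het library 3 and WT library 3 also have high Xist.

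The very long genes that the rule left out were described in the same way, with no test. The 34 very long genes of the left-out families that met the same floor had 17 higher and 17 lower, a median log2 difference of -0.0057 and 3 at an unadjusted p under 0.05. That p was reached by 5.83% of all genes tested, 6.76% of autosomal protein-coding genes with the same floor and 8.82% of the members. The 10 very long genes on X had 3 higher and 7 lower with a median of -0.077 and 3 at an unadjusted p under 0.05 (1 higher, 2 lower), in libraries that differ in sex within each genotype. Members that share exonic bases with another gene had a median of 0.014 (n = 63), and those that share none a median of -0.031 (44 higher, 63 lower).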

How the data were processed

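Gene-level read counts, not normalized, were deposited by the authors as 1 table per library. The submitters' processing notes name Bowtie2 2.3.4.3, featureCounts, FastQC and DESeq2, and the builds GRCm38.p6 and mm10, without order or settings. Per the labels' protocols, Trizol RNA was cleared of DNA and entered an unstranded TruSeq kit, so antisense reads cannot be separated. If Bowtie2 searched the genome, reads over exon junctions could have been undercounted; this bears more on levels than on differences.

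All 55450 identifiers matched GENCODE M21, which gave symbols, positions and exons. Genes were filtered with filterByExpr (minimum count 10, total 15), scaled with TMM and compared, het minus WT, by the quasi-likelihood test (glmQLFTest) of edgeR 4.0.16 under R 4.3.3, without covariates. Adjustment was by Benjamini-Hochberg over all genes, and 0.05 was the threshold. Libraries varied by a common biological coefficient of variation of 16.1%. CPM values use TMM-scaled totals, and library deviations use log2 CPM with a prior count of 1. An exact two-sided permutation test cannot go below 0.1 with 3 libraries a group. Every pair of libraries differed beyond sampling noise (chi-square per gene 11.8 to 94.0), so all count as separate. The other fits used DESeq2 1.42.0 and limma 3.58.1.

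The members, role lists and markers were chosen with earlier results of these data known. The genes named are Setd5, the longest 5, 6 per direction by smallest p, the smallest p and highest CPM of each role list, the fragile site genes, those around 500 kb, and of the transcription list Top1, Top2b and any at an unadjusted p under 0.05. Predicted models are named only for their span or their overlap in position. Names outside this rule, in the lists of non-overlapping genes and of unadjusted p and among the genes of the principal component, were chosen after their values were seen. No list was given a test of its own, and some genes that the naming rule takes are not reported here.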

Additional observations from a re-analysis of the deposited data

How the results depend on the processing

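No paired analysis was possible because the labels give no replicate numbers shared between genotypes. No member was called at an adjusted p under 0.05 under any alternative run (other scalings, filters and tests, covariates, left-out libraries and other member rules). The slopes against span kept their sign and moved by less than the spread between libraries. The cause of the shifts below was not tested, except that the other member rules hold fewer or more genes. The alternatives with Xist class, without the high-Xist libraries, without shared exons and with RefSeq spans over 500 kb were added after seeing the data.

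The 15 members at an unadjusted p under 0.05, beside 5.83% of all genes, became 27 with every gene of at least 1 count kept (5.10% of all genes in that fit). The count was 29 with limma-voom and quality weights (7.91%), 26 with Xist class as a covariate (7.27%) and 26 without the 2 high-Xist libraries (7.89%). In the main fit it was 23 of 264 members over 400 kb and 2 of 43 over 1000 kb. With a library left out it was 7 to 30, beside 3.07% to 8.89% of all genes. The median log2 difference of -0.011 became -0.023 with upper quartile factors, -0.027 with library totals, -0.021 with every gene kept, 0.0031 with GC and exonic length trends removed, -0.0039 without the 2 high-Xist libraries, -0.018 over 400 kb, -0.024 over 1000 kb and -0.031 without shared exons, and lay between -0.020 and -0.0030 with a library left out. The median over all genes of the fit moved as well. It went from -0.00053 to -0.012 with upper quartile factors, -0.016 with library totals and -0.014 with every gene kept. With GC and exonic length trends removed it was 0.0053, and 0.011 over the protein-coding genes with the same CPM floor. The 80 members fitted higher (47.1%) became 20 of the 43 over 1000 kb (46.5%) and 44 of the 107 without shared exons (41.1%). Setd5 passed with every gene kept (adjusted p 0.0119), DESeq2 (3.08e-07), limma-voom with quality weights (0.0444) and edgeR's likelihood ratio test (7.31e-05).

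Of the named genes' values under alternatives 748 kept direction and side of the threshold and 28 turned sign, all of small log2 differences. With limma-voom and quality weights Cadm2 was at -0.017, Psd3 at -0.025, Macrod2 at 0.037 and Rora at 0.0016. With the striatal covariate Cadm2 was at -0.0012, Psd3 at -0.020 and Macrod2 at 0.00053. Without the 2 high-Xist libraries Cadm2 was at -0.068, Psd3 at -0.035, Macrod2 at 0.0997 and Rora at 0.020. Psd3 was at -0.0093 with upper quartile factors, -0.013 with library totals and -0.0075 with every gene kept. With GC and exonic length trends removed Macrod2 was at 0.0073. With a library left out the range was -0.062 to 0.069 for Cadm2, -0.13 to 0.015 for Lrrc4c, -0.0032 to 0.069 for Plcb1, -0.065 to 0.073 for Psd3, -0.038 to 0.045 for Macrod2, -0.21 to 0.019 for Immp2l, -0.053 to 0.013 for Rora and -0.050 to 0.11 for Car10. Depth limits little here, since every member has at least 1 CPM; 3 libraries a genotype limit the precision.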
